A study of Homo sapiens with 6 samples.

Results

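The SLC1, SLC3, SLC7, SLC36, SLC38 and SLC43 families hold the main amino acid transporters of the human plasma membrane and lysosome. Their transcripts were compared between SUM159 cells with knockdown of the type III TGF-β receptor (TβRIII-KD) and control cells. Members were chosen by symbol alone, as every gene whose symbol starts with SLC1A, SLC3A, SLC7A, SLC36A, SLC38A or SLC43A, measured by the transcript cluster (the array's probe group for a gene) with the highest mean signal over the 6 arrays. This gave 41 of the 18276 genes measured. One of them, SLC7A6OS, lies on the opposite strand of SLC7A6 and is not a transporter, and another, SLC38A12, was formerly named TMEM104. SUM159 is an established triple negative breast cancer line used as a model of the mesenchymal stem-like subtype. The 3 control and 3 TβRIII-KD samples were grown in three-dimensional matrigel cultures and labelled day 6, and no group received a treatment. TβRIII-KD cells carried a lentiviral shRNA against TGFBR3 and had been selected with puromycin. The paper made such SUM159 cells with several shRNA clones and reports a single shRNA for its later experiments. The labels of these samples do not name the clone. Each group may be a single stable cell population, which is not given for these samples. An effect of the shRNA or of the selected cells thus cannot be told apart from loss of TβRIII. The sources used here give neither the vector of the control samples nor whether replicate arrays stem from separate cultures, so p-values reflect the spread among these 6 arrays alone, which may be technical.

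Amino acid transporters set which amino acids a cell takes up, releases or recovers from the lysosome. Several SLC7 proteins reach the membrane only as a light chain bound to the SLC3A2 (4F2hc, CD98) or SLC3A1 (rBAT) heavy chain, and they work as exchangers, importing one amino acid while another leaves. SLC1 and SLC38 proteins use the sodium gradient, SLC36 proteins use protons, and SLC43 proteins carry large neutral amino acids without a coupled ion. In cancer cells the family is best known for cystine uptake through SLC7A11, which feeds glutathione synthesis, and for leucine and glutamine uptake, which feeds mTORC1 signaling.

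TGFBR3, the target of the shRNA, had a log2 signal of 10.81, 10.89 and 10.56 in the controls and 9.72, 10.01 and 10.16 in TβRIII-KD. All TβRIII-KD arrays lay below all control arrays, at a log2 fold change of -0.79 with SE 0.13 (limma, adjusted p = 0.0145). The adjusted p was 0.0770 without control 1, 0.0554 without control 2 and 0.0625 without TβRIII-KD 2. Each signal is an average over the cells of a culture, so fewer cells with a transcript and less of the transcript per cell cannot be told apart. Array medians lay between 7.67 and 7.71. Correlations across transcript clusters were 0.9917 to 0.9962 within groups and 0.9859 to 0.9921 between them, so these ranges overlapped slightly. The arrays give no detection call, so the presence or absence of marker transcripts could not be read from them, and the markers were compared between groups only. Of 7 markers of SUM159 cells, none passed the cutoff, where 2.33% of all genes did. The cutoff was an adjusted p under 0.05 with a log2 fold change beyond 0.5 in either direction. The nearest was SPARC, a matrix protein gene, which was lower in every TβRIII-KD array than in any control (log2 fold change -0.45, SE 0.08, adjusted p = 0.0189). Vimentin was at -0.07. Of 7 markers that triple negative mesenchymal cells are not known for, GATA3 rose (log2 fold change 0.68, adjusted p = 0.00858). The other 6, including ESR1 (0.04), PGR (0.02) and ERBB2 (0.08), did not pass. Of 12 markers of other cell types, the endothelial marker PECAM1 fell by 1.04 on the log2 scale (adjusted p = 0.00127), and the other 11 lay between -0.29 and 0.15 with none past the cutoff. The log2 of the summed signal of these 12 markers was 11.04 to 11.28 in controls and 10.82 to 11.04 in TβRIII-KD. The part of these marker differences in the transporter results was not tested.

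SLC7A11, SLC38A4 and SLC7A5 rose and SLC7A7 fell in TβRIII-KD. Thus 3 of the 41 members were called higher (7.32%), where 0.772% of all genes were, and 1 was called lower (2.44%), where 1.55% of all genes were. Without the fold limit, 4 members were higher at an adjusted p under 0.05 (9.76%, against 1.26% of all genes) and 1 was lower (2.44%, against 2.22%). The arrays of the groups did not overlap for 12 members (29.3%), 8 higher and 4 lower, whereas this held for 21.3% of all genes. The share lower thus rests on 1 gene and the share higher on 3. The median log2 fold change of the members was 0.06, beside 0.01 for all genes, and 27 members lay above 0 and 14 below. The median absolute log2 fold change was 0.09 for the members and 0.09 for all genes. No test over the list was made. For 36 members the 95% confidence interval lay inside 0.5 in both directions. These are the same members that missed an adjusted p of 0.05, and their log2 fold changes ran from -0.25 to 0.19. The 3 calls higher and the 1 lower held without any 1 of the 6 arrays. The unpaired two-tailed test that the methods name called 3 higher and 1 lower without adjustment and none of the 4 with it.

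**Figure D1:**
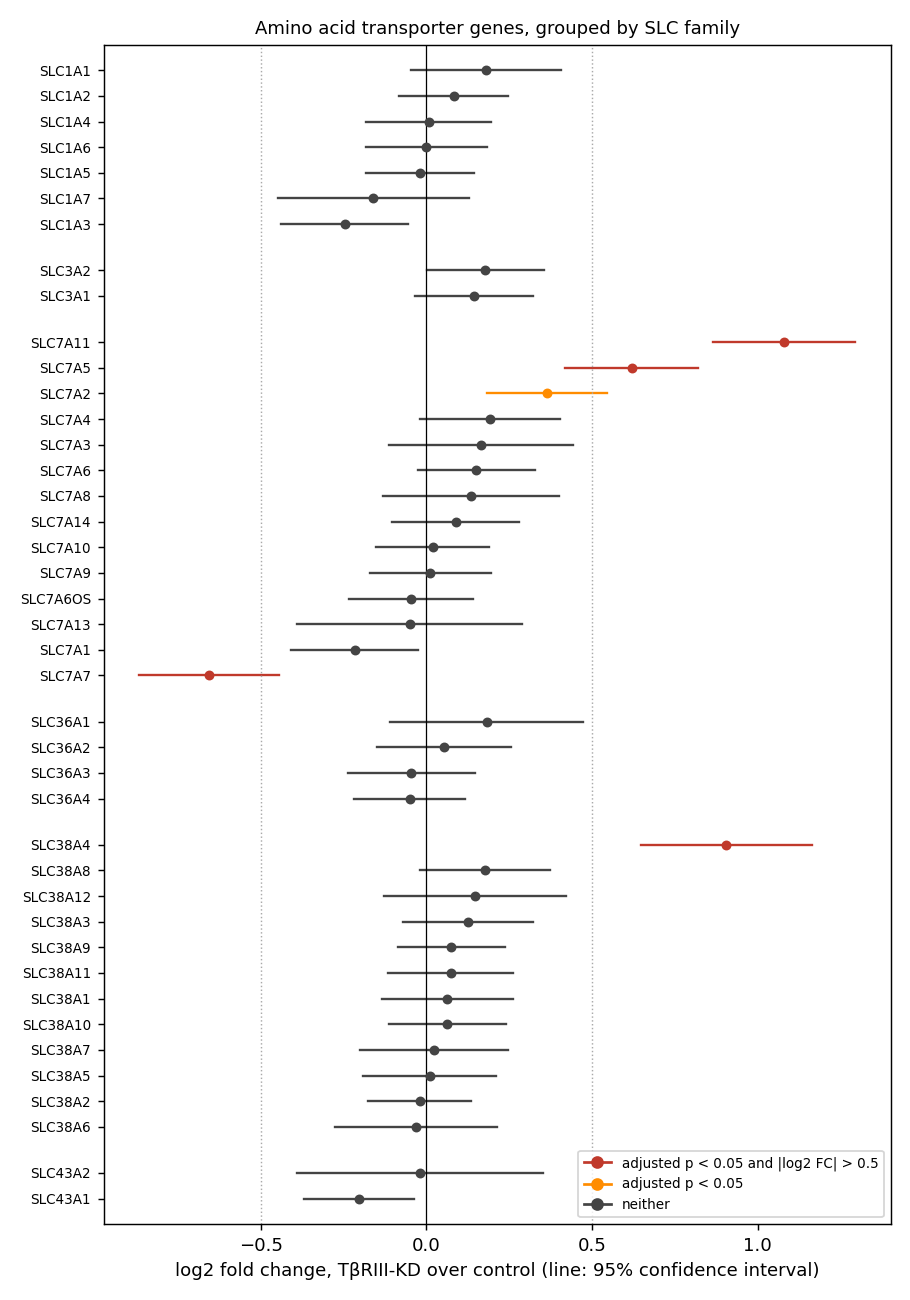
Log2 fold change in RMA signal (TβRIII-KD over control, x axis) of the 41 amino acid transporter genes, grouped by family, with 1 dot per gene and a line for limma's 95% confidence interval. Red marks the 4 genes past the cutoff, orange SLC7A2, and the dotted lines are at 0.5 in each direction. Within the families, 21 genes lie within 0.1 of 0.

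SLC7A11 had the largest change of the members. It is the light chain of system xc-, which imports cystine in exchange for glutamate. Its log2 signal was 8.72, 8.79 and 8.60 in the controls and 9.92, 9.79 and 9.64 in TβRIII-KD. The lowest TβRIII-KD array thus stood well above the highest control, and the spread within either group was small beside the gap. The log2 fold change was 1.08 (SE 0.09, 95% interval 0.87 to 1.29, adjusted p = 0.000908), a signal 2.11-fold higher in TβRIII-KD. It was between 1.01 and 1.15 without any 1 array. It was the only member that passed a log2 fold limit of 1.

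SLC7A5 (LAT1), the light chain that imports leucine and other large neutral amino acids, rose as well. Its log2 signal was 9.41, 9.57 and 9.36 in the controls and 10.10, 10.15 and 9.95 in TβRIII-KD. The groups did not overlap, and the log2 fold change was 0.62 (SE 0.09, 95% interval 0.42 to 0.82, adjusted p = 0.00796), or 1.54-fold. Leaving out 1 array gave 0.58 to 0.68, with adjusted p of 0.0496 or less. SLC7A5 has sequence copies elsewhere in the genome, and how the authors treated probes that match several copies is not given here. A transcript cluster shared by the SMG1 and BOLA2 copies and the copy SLC7A5P2 stood at -0.02 on the log2 scale (adjusted p = 0.949).

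SLC7A7 (y+LAT1) fell. It is the light chain that exchanges cationic amino acids such as arginine and lysine for neutral ones. Its log2 signal was 6.71, 6.99 and 6.78 in the controls and 6.07, 6.22 and 6.22 in TβRIII-KD. Every TβRIII-KD array was thus below every control. All these values lay below the array medians of 7.67 to 7.71, and the arrays give no detection call. The log2 fold change was -0.65 (SE 0.09, 95% interval -0.87 to -0.44, adjusted p = 0.00755), so the control signal was 1.57-fold that of TβRIII-KD. Without any 1 array it was -0.71 to -0.57. SLC7A6 (y+LAT2), the close relative with the same kind of exchange, was 8.90, 9.09 and 8.99 in controls and 9.11, 9.20 and 9.13 in TβRIII-KD. It did not pass the test (log2 fold change 0.15, 95% interval -0.03 to 0.33, adjusted p = 0.413). The gene on the other strand of SLC7A6, SLC7A6OS, stood at -0.05.

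SLC3A2, the heavy chain that all 3 of these light chains share, had a smaller change than any of them. Its log2 signal was 10.16, 10.17 and 10.16 in the controls and 10.46, 10.28 and 10.28 in TβRIII-KD. Here too the groups did not overlap, but the log2 fold change was 0.18 (SE 0.08, 95% interval 0.00 to 0.35) and did not pass the test (adjusted p = 0.324). The change of each light chain was set against that of SLC3A2 within the same arrays. These comparisons, and one of SLC38A4 with SLC38A2, were chosen after the values were seen. The log2 difference SLC7A11 minus SLC3A2 was 0.90 higher in TβRIII-KD, and SLC7A5 minus SLC3A2 was 0.44 higher. SLC7A7 minus SLC3A2 fell by 0.83. In all 4 comparisons the groups did not overlap. The two-sided exact permutation p was 0.1, the lowest p for groups of 3, and 0.1 after adjustment over the 4. Since the pairs were chosen on these values, this p adds no support. The other heavy chain, SLC3A1, was at 0.14 (adjusted p = 0.445). Of the 8 light chains measured, 2 rose and 1 fell, beside 0.772% and 1.55% of all genes. The remaining 5 did not pass, with log2 fold changes of 0.15 for SLC7A6, 0.13 for SLC7A8 (LAT2), 0.02 for SLC7A10 (Asc-1), 0.01 for SLC7A9 (the partner of SLC3A1) and -0.05 for SLC7A13.

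**Figure D2:**
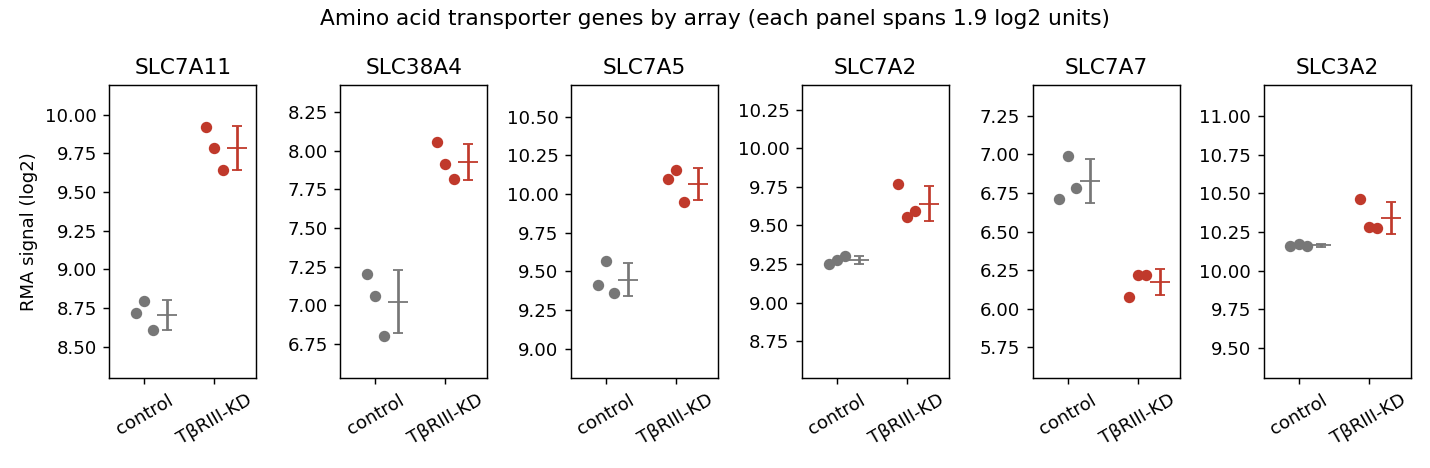
RMA signal (log2, y axis) on each array for SLC7A11, SLC38A4, SLC7A5, SLC7A2, SLC7A7 and SLC3A2, with controls in grey, TβRIII-KD in red, 1 dot per array and, to the right, a bar for mean ± SD (n = 3). Every panel spans the same range on the log2 scale, and positions are not comparable between genes. The gap between groups is widest for SLC7A11 and runs the other way for SLC7A7.

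The cationic amino acid transporters (CAT proteins) work without a heavy chain and carry arginine, lysine and ornithine. SLC7A2 (CAT2) was 9.25, 9.27 and 9.30 in controls and 9.77, 9.56 and 9.60 in TβRIII-KD. Its log2 fold change was 0.36 (SE 0.08, 95% interval 0.18 to 0.55, adjusted p = 0.0471), below the fold limit, and its adjusted p was 0.0596 to 0.185 when any 1 array was left out. SLC7A1 (CAT1) had the opposite sign. It was 9.72, 9.86 and 9.88 in controls and 9.49, 9.66 and 9.66 in TβRIII-KD, which is -0.22 on the log2 scale, without overlap, and missed the test (SE 0.08, adjusted p = 0.259). SLC7A3 (CAT3) was at 0.16 (adjusted p = 0.591). Their relatives SLC7A4 and SLC7A14, for which no cationic transport at the membrane is established, were at 0.19 (adjusted p = 0.381) and 0.09 (adjusted p = 0.687).

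Among the sodium-coupled SLC38 transporters, SLC38A4 alone passed the cutoff. SLC38A4 (SNAT4) carries small neutral amino acids such as alanine and is known from liver and placenta. Its log2 signal was 7.20, 7.06 and 6.80 in controls and 8.05, 7.91 and 7.82 in TβRIII-KD. The control values lay below the array medians of 7.67 to 7.71 and the TβRIII-KD values above them. The TβRIII-KD arrays lay close together and above all controls, of which control 3 was the lowest. The log2 fold change was 0.90 (SE 0.11, 95% interval 0.65 to 1.16, adjusted p = 0.00447), or 1.87-fold. It was 0.79 to 0.99 without any 1 array, with adjusted p of 0.0301 or less.

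The general glutamine carriers of the same family overlapped between groups. SLC38A2 (SNAT2), known as the transporter induced by amino acid shortage, was 12.78, 12.82 and 12.87 in controls and 12.83, 12.79 and 12.78 in TβRIII-KD. The log2 fold change was -0.02, with a 95% interval of -0.18 to 0.13 (adjusted p = 0.926). Its sign turned when quantile normalization was repeated, giving 0.02. SLC38A1 (SNAT1) was 11.94, 12.03 and 11.82 in controls and 12.11, 11.94 and 11.93 in TβRIII-KD, or 0.06 on the log2 scale (95% interval -0.13 to 0.26, adjusted p = 0.792). Set against SLC38A2 within arrays, SLC38A4 was 0.93 higher on the log2 scale in TβRIII-KD. SLC38A9, a lysosomal arginine sensor for mTORC1, was at 0.08 (adjusted p = 0.683), with arrays that did not overlap. The remaining family members with a SLC38 symbol, SLC38A3, SLC38A5, SLC38A6, SLC38A7, SLC38A8, SLC38A10, SLC38A11 and SLC38A12, lay between -0.03 and 0.18, and none passed the test.

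None of the 7 SLC1 transporters passed the cutoff, where 2.33% of all genes did. SLC1A5 (ASCT2), the sodium-dependent glutamine exchanger, was 10.34, 10.30 and 10.32 in controls and 10.22, 10.31 and 10.36 in TβRIII-KD. Its log2 fold change was -0.02 with a 95% interval of -0.18 to 0.14 (adjusted p = 0.928), and a second transcript cluster for SLC1A5 gave 0.01. SLC1A4 (ASCT1), which carries serine, was at 0.01. Of the acidic amino acid transporters, SLC1A3 (EAAT1), which imports glutamate and aspartate, was 9.63, 9.85 and 9.75 in controls and 9.50, 9.57 and 9.42 in TβRIII-KD. Every TβRIII-KD array lay below every control, but the log2 fold change of -0.25 (SE 0.08, 95% interval -0.44 to -0.05) did not pass after adjustment (adjusted p = 0.191). SLC1A1 (EAAT3), which can also carry cysteine, was at 0.18 (adjusted p = 0.456), SLC1A2 at 0.08, SLC1A6 at -0.00 and SLC1A7 at -0.16.

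The 4 proton-coupled SLC36 transporters, which release small amino acids from lysosomes or take them up at acidic surfaces, ranged from -0.05 for SLC36A4 to 0.18 for SLC36A1, with overlapping groups and a lowest adjusted p of 0.569. Of the 2 SLC43 members, SLC43A1 (LAT3), a carrier of large neutral amino acids, was 9.49, 9.40 and 9.55 in controls and 9.27, 9.24 and 9.31 in TβRIII-KD. These groups did not overlap, and the log2 fold change was -0.20 (SE 0.07, 95% interval -0.37 to -0.04, adjusted p = 0.219). SLC43A2 (LAT4) had the widest error of the members (SE 0.16), from TβRIII-KD arrays of 7.85, 8.13 and 7.46, and a log2 fold change of -0.02. A count of 7 of the 14 SLC7 genes had groups without overlap, whereas this held for 5 of the 27 other members (18.5%), beside 21.3% of all genes, and the difference between these shares was not tested.

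Each of the 4 transporters past the cutoff was compared with the 3 nearest measured genes on either side in the RefSeq annotation of GRCh38.p14. None of these 24 neighbours passed the cutoff, beside 2.33% of all genes, and the absence of calls among so few genes says little. The neighbours of SLC7A11 lay between -0.01 and 0.18 in log2 fold change. SLC38A4 lies in a cluster with SLC38A1 and SLC38A2, which were at 0.06 and -0.02, and on its other side AMIGO2, which encodes an adhesion protein, was at 0.30 (adjusted p = 0.161). The neighbours of SLC7A5 ran from -0.11 to 0.19. All 6 neighbours of SLC7A7 were below 0, from -0.33 to -0.07, and DAD1, a subunit of the enzyme that attaches N-linked sugars to proteins, had an adjusted p of 0.0370 (log2 fold change -0.33). The 6 neighbours of SLC7A2 were all below 0 as well, from -0.49 to -0.03, although SLC7A2 itself was higher in TβRIII-KD and missed the fold limit. The lowest of them, MTUS1, had an adjusted p of 0.0179 and also missed the fold limit.

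**Figure D3:**
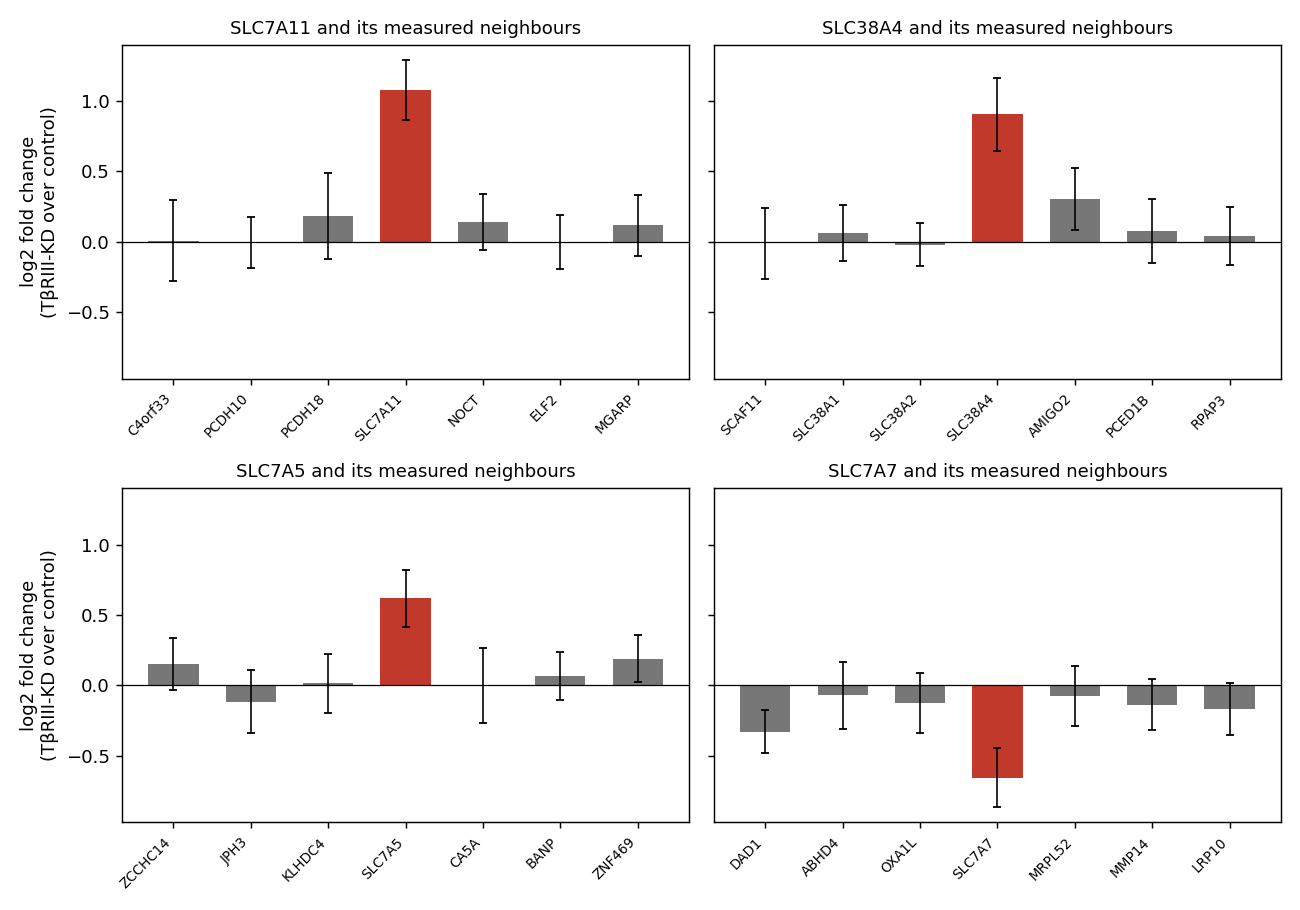
Log2 fold change (TβRIII-KD over control, y axis) of the 4 transporters past the cutoff (red) and of the 3 nearest measured genes on either side (grey), in chromosome order, with limma's 95% confidence interval as error bars. The red bars of SLC7A11, SLC38A4 and SLC7A5 stand above their neighbours and that of SLC7A7 lies below, while no grey bar passes 0.33 in either direction.

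The bases upstream of the start sites of 2 transporters that rose are shown, because the RefSeq promoter table (GRCh38.p14) holds 1 start for each of them. Both lie on the minus strand and are written 5′ to 3′ towards the start. The SLC7A5 stretch is chr16:87869508-87869757, and its capitals mark an E-box (CACGTG), the motif bound by MYC and MAX among other factors. The SLC38A4 stretch is chr12:46825998-46826247, and no capitals appear in it because none of the motifs searched was found.
SLC7A5: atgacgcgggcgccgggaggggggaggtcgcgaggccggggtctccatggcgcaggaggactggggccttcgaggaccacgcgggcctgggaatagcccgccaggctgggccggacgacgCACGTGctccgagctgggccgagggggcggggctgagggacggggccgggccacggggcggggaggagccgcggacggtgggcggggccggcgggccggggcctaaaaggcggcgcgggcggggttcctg
SLC38A4: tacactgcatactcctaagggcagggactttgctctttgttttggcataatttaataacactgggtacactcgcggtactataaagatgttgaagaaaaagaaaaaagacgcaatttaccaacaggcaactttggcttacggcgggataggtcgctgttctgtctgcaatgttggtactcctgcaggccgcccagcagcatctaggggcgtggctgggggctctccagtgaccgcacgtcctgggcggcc

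The searched motifs, on both strands of the 250 bases upstream, were the E-box CACGTG, the core of the antioxidant response element bound by NRF2 (TGACNNNGC) and the core of the element bound by ATF4 with C/EBP partners (TGATGNAA). An entry was found for 33 of the 41 members, and SLC7A11 was not among them. The E-box was in at least 1 promoter of 8 members (SLC1A5, SLC1A7, SLC36A1, SLC38A5, SLC43A1, SLC7A5, SLC7A7 and SLC7A8). It was in 7.70% of all 27167 genes with an entry and in 6.32% of all promoters. The NRF2 core was found for 6 members (SLC1A3, SLC1A5, SLC3A2, SLC7A1, SLC7A6 and SLC7A7), and for 13.2% of all genes and 10.9% of promoters. The ATF4 core was found for 2 members (SLC1A3 and SLC1A5), and for 3.89% of all genes and 3.15% of promoters. SLC7A7 has 3 start sites in the table, one with the E-box and another with the NRF2 core. A match is a description of the letters only. The transcripts of the factors themselves did not pass the test. Log2 fold changes were -0.11 for MYC, 0.08 for MAX, 0.31 for NFE2L2 (NRF2, adjusted p = 0.227), 0.10 for its inhibitor KEAP1 and 0.03 for ATF4. Of the C/EBP genes, CEBPB was at -0.34 (adjusted p = 0.122), with every TβRIII-KD array below every control, and CEBPG was at 0.14. Protein levels and activity of these factors were not measured, and their part in the transporter results was not tested.

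Genes that act with the transporters were taken by list, and counts cover only the listed genes found among those measured. For glutamine, glutamate, proline, asparagine and arginine enzymes these were 16 of 22 listed, and for aminoacyl-tRNA synthetases 15 of 20. For glutathione they were 11 of 13, and for amino acid sensing and mTORC1 34 of 36. The serine and glycine list held 9 genes, the branched-chain and cysteine list 13 and the regulator list 18. Of 30 other amino acid and peptide carriers (SLC6, SLC15, SLC25 and others), 1 was called lower (3.33%, beside 1.55% of all genes) and none higher (0.772% of all genes), with a median of 0.08. SLC25A18, a mitochondrial glutamate carrier, was 8.00, 8.31 and 8.02 in controls and 7.53, 7.33 and 7.31 in TβRIII-KD (log2 fold change -0.72, SE 0.11, adjusted p = 0.00874). Without TβRIII-KD 2 its adjusted p was 0.0510. SLC6A6, the taurine transporter, had the next smallest p of this list, at 0.33 (adjusted p = 0.0640).

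Enzymes of glutamine, glutamate, proline, asparagine and arginine metabolism had 1 call in each direction among 16 measured, 12.5% in all beside 2.33% of all genes. GLUL (glutamine synthetase), which makes glutamine from glutamate, fell from 12.68, 12.46 and 12.56 in controls to 11.93, 12.03 and 12.00 in TβRIII-KD (log2 fold change -0.58, SE 0.08, adjusted p = 0.00755). More than 1 transcript cluster carried the symbol GLUL, and their mean gave -0.64 (limma, adjusted p = 0.00214). PRODH, which starts proline breakdown, rose from 6.86, 6.96 and 7.10 to 7.43, 7.47 and 7.72 (log2 fold change 0.57, SE 0.10, adjusted p = 0.0214). This call of PRODH was lost without control 1 (adjusted p = 0.103), control 2 (0.0726) or TβRIII-KD 2 (0.0644), and without TβRIII-KD 3 its log2 fold change was 0.48.

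No gene of 8 for serine and glycine synthesis, 12 for branched-chain and cysteine metabolism or 11 for glutathione passed the cutoff. Of all genes, 2.33% passed it, so the absence of calls in lists this short says little. The smallest p of these lists belonged to GLDC of the glycine cleavage system (log2 fold change 0.30, adjusted p = 0.150), to BCKDK, the kinase that inhibits branched-chain ketoacid oxidation (-0.42, adjusted p = 0.0566), and to GSR, glutathione reductase (0.21, adjusted p = 0.251). BCKDK passed the cutoff without TβRIII-KD 3 (-0.52, adjusted p = 0.0111). PHGDH, the first enzyme of serine synthesis, was spread widely at 9.23, 9.59 and 8.90 in controls and 10.03, 9.77 and 9.34 in TβRIII-KD, with overlapping groups (log2 fold change 0.48, SE 0.21, adjusted p = 0.323). The catalytic subunit of glutathione synthesis, GCLC, was at 0.15 and its modifier GCLM at -0.08.

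The ATF4 pathway is the response to amino acid shortage that induces several transporters. None of its 22 genes passed the cutoff, beside 2.33% of all genes, and the median was 0.02. The absence of calls in a list this short says little. NUPR1, a stress-induced chromatin protein, had the smallest p (log2 fold change -0.48, adjusted p = 0.0334), and it passed the cutoff with array weights (-0.52), without control 3 (-0.57) and without TβRIII-KD 3 (-0.52). ASNS (asparagine synthetase, 0.16), DDIT3 (CHOP, 0.13), TRIB3 (-0.26) and CHAC1 (0.02) did not pass. Of 34 genes for amino acid sensing and mTORC1, 1 was called lower and none higher (2.94% in all, near the 2.33% of all genes called in either direction). DEPTOR, an inhibitor of mTOR, fell from 8.83, 9.18 and 8.89 to 8.39, 8.28 and 8.37 (log2 fold change -0.62, SE 0.10, adjusted p = 0.0144), with an adjusted p of 0.0696 without TβRIII-KD 2. None of 15 aminoacyl-tRNA synthetases passed the cutoff, beside 2.33% of all genes, which again says little for so few genes. The lowest p was that of RARS1 for arginine (-0.41, adjusted p = 0.0411).

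Among 16 regulators and partners of the transporters, 1 gene was called in each direction (12.5% in all, beside 2.33% of all genes). MUC1, a membrane mucin that binds and stabilizes transporter complexes in some cancer cells, was 9.00, 8.96 and 9.22 in controls and 8.14, 8.13 and 8.37 in TβRIII-KD (log2 fold change -0.85, SE 0.10, adjusted p = 0.00338). NEDD4L, a ubiquitin ligase that removes several transporters from the membrane, rose from 6.58, 6.81 and 6.73 to 7.58, 7.24 and 7.15 (log2 fold change 0.62, SE 0.12, adjusted p = 0.0311). The call of NEDD4L was lost without control 1 (adjusted p = 0.134), control 2 (0.0603), control 3 (0.0961) or TβRIII-KD 2 (0.0831), and without TβRIII-KD 1 its log2 fold change was 0.49. BSG (basigin, 0.06) and CD44 (-0.05), which associate with SLC3A2 and SLC7A11 at the membrane, did not pass.

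**Figure D4:**
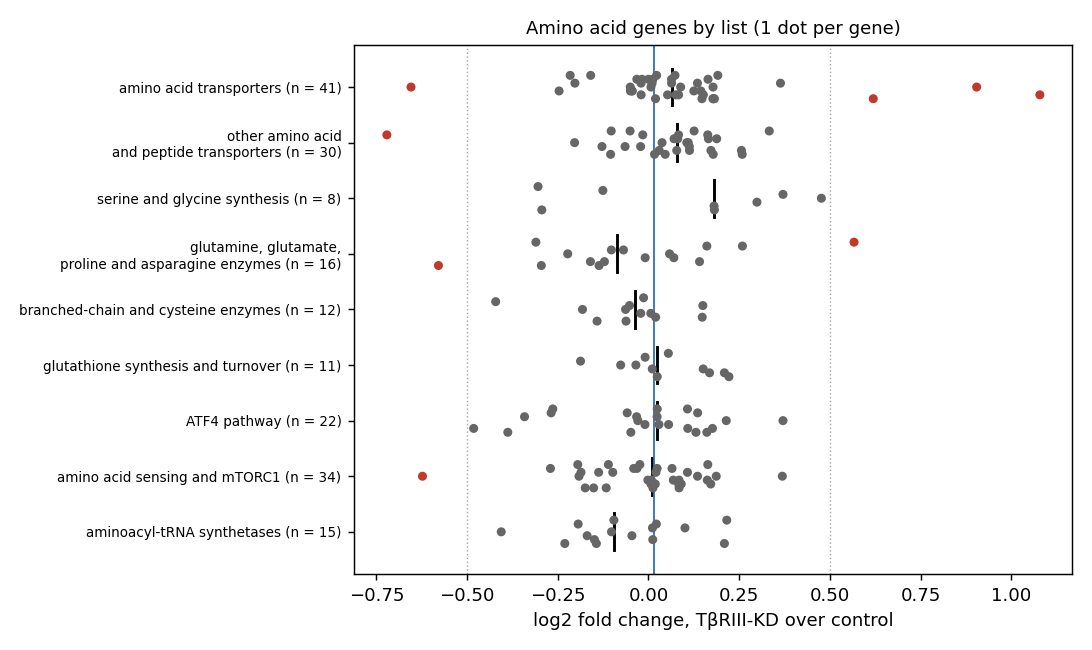
Log2 fold change (TβRIII-KD over control, x axis) of the amino acid transporters and of 8 lists of related genes, with 1 dot per gene, red where the cutoff was passed, a black bar at the median of each list, a blue line at the median of all genes (0.01) and dotted lines at 0.5 in each direction. Red dots are 4 of the 41 transporters (9.76%), 2 of the 16 glutamine, glutamate, proline and asparagine enzymes (12.5%) and 1 gene each of the other carriers and the mTORC1 list.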

How the data were processed

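RNA of 6 SUM159 samples was measured on Affymetrix Human Gene 1.0 ST arrays. The deposited values are log2 signals that the authors made with RMA in the oligo package under R 3.0.1, which corrects background, makes the distributions of the arrays equal by quantile normalization and summarizes probes by median polish. The version of oligo is not given in the sources used here. Of 22148 transcript clusters, 19129 carried 1 gene symbol in the platform annotation, 1735 several and 1284 none, and genes were taken from those with 1. Samples were grouped by label. The groups were tested with limma 3.58.1 in R 4.3.3 (lmFit, eBayes without trend, two-sided), and p-values were adjusted by Benjamini-Hochberg across the whole table. Calls needed an adjusted p under 0.05 and a log2 fold change beyond 0.5 in size, and SE and 95% intervals are limma's moderated ones. The number of arrays, 3 per group, limits the precision. The procedure was tested on simulated data.

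The members and the gene lists, the latter from textbook knowledge, were chosen with earlier results of these data known. Arrays were listed for members at an adjusted p under 0.05, or under 0.25, or with an absolute change over 0.3, for SLC3A2 and its light chains SLC7A5 and SLC7A11, and for SLC1A5, SLC38A1 and SLC38A2. From other lists the called genes were named, at most 4 each, or otherwise the one with the smallest p. Further genes were chosen after their values were seen. Alternatives were other moderation, array weights, the methods' general unpaired t-test, filters on dim or unnamed rows and each array left out. A replicate block, other normalization, other fold limits, the mean of a gene's rows and identical rows counted once were also used. Names, gene order and promoter sequences are from RefSeq (GRCh38.p14).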

Additional observations from a re-analysis of the deposited data

How the results depend on the processing

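The 3 transporters called higher and 1 called lower stayed at 3 and 1 without any 1 array (3 to 3 and 1 to 1), with the variance trend, robust moderation, array weights, median centring, repeated quantile normalization, the mean of a gene's rows and the unadjusted methods' t-test. They were 0 and 0 with the methods' t-test after adjustment (adjusted p of 0.0759 for SLC7A11, 0.122 for SLC7A5, 0.127 for SLC7A7 and 0.132 for SLC38A4), where TGFBR3 at -0.79 had an adjusted p of 0.198 and only 1 gene was higher and 13 lower. Unadjusted, this t-test gave 174 and 325 genes. The methods name it for data in general and limma for the arrays. A fold limit of 1 left 1 transporter higher and 0 lower, and 36 and 86 genes. With no fold limit, 4 and 1 transporters and 230 and 406 genes passed. Among rows at or above the median signal, 2 transporters were higher and 0 lower, since SLC38A4 and SLC7A7 were not in that set, and 91 and 189 genes passed. Leaving out 1 array gave 75 (without control 1) to 214 (without TβRIII-KD 3) genes higher and 182 (without TβRIII-KD 2) to 332 lower. Genes higher were 86 without TβRIII-KD 2 and 93 without control 3, and genes lower 183 without control 1. TGFBR3 ranged from -0.89 to -0.67 and missed the cutoff without control 1, control 2 or TβRIII-KD 2 (-0.76, -0.72 and -0.81). Signs turned for SLC38A2 with repeated quantile normalization (0.024) and without 1 array (-0.041 to 0.0029, above 0 without control 3), and for SLC1A5 without 1 array (-0.053 to 0.018, above 0 without TβRIII-KD 1). The cause of these changes was not tested where the setting does not itself remove rows or arrays.

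Whether replicate numbers pair the samples is not given. The deviations of same-numbered arrays correlated at -0.06, 0.11 and 0.31, values too few to decide it. With a replicate block the calls were 3 and 1 transporters, 189 and 331 genes, and TGFBR3 at -0.79. The adjusted p of SLC7A2 was then 0.0610. For single genes other than TGFBR3, called or not, 414 values over the alternatives kept their sign and their side of the cutoff, 23 fell short of a cutoff passed before and 4 newly passed it.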

Other observations

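One transcript cluster carried the symbols of both SLC43A3, a member of the SLC43 family, and PRG2, an eosinophil granule protein gene next to it, and so was in no comparison above. Its log2 signal was 7.57, 7.54 and 7.79 in controls and 7.19, 7.08 and 7.26 in TβRIII-KD. The groups did not overlap, and the log2 fold change was -0.46 (SE 0.09, adjusted p = 0.0326 in limma), below the fold limit of the cutoff. Which of these genes the signal came from cannot be told apart. The second transcript cluster of SLC7A14 was at 0.02 on the same scale (adjusted p = 0.960).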
